A study of Rattus norvegicus with 3 samples.

Results

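The genes described here are those of the rat major histocompatibility complex (MHC) and the antigen presentation machinery that serves it, measured in the enamel organ of the rat incisor, the epithelium that makes tooth enamel. They were chosen by symbol from the table of gene levels: every gene whose symbol starts with RT1-, the prefix of rat MHC genes, and Cd74, B2m, Tap1, Tap2, Tapbp, Ciita, Psmb8, Psmb9, Psmb10 and Nlrc5. The rule found 38 of 16516 genes, 28 of them by the prefix and 10 by their own symbol. It used no measured level, but it and the gene lists below were chosen with earlier results of these data known. The study sequenced RNA of cells dissected from enamel organs of 5 Wistar Hannover rats, untreated as far as the labels say and of an age the labels do not give. The 3 groups are successive stages along the tooth: proliferating cells of the cervical loop, secretory ameloblasts and maturation ameloblasts. Each stage is given as 1 value per gene, the authors' least-squares mean over the libraries of that stage, so no standard deviation can be given, and all comparisons below rest on the p-values in the authors' deposited table.

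MHC class I molecules are made of a heavy chain and beta-2 microglobulin and show peptides from inside the cell. Those peptides are cut by the proteasome, in which interferon-induced subunits can replace the constitutive ones, carried into the endoplasmic reticulum by the transporter Tap1/Tap2 and loaded with the help of tapasin (Tapbp). MHC class II molecules are pairs of an alpha and a beta chain, held until they reach the endosome by the invariant chain Cd74, and show peptides taken up from outside. Class II genes are typical of dendritic cells, macrophages and B cells and are switched on by the transactivator Ciita. Class I genes are active in most cell types and are raised by interferon through factors such as Nlrc5.

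The unit of the authors' means is not stated in the headers, so levels are compared between stages and not between genes. A false discovery rate (FDR) is the Benjamini-Hochberg adjusted p over the 16516 genes compared between 2 stages, and a gene is called higher or lower where its FDR was below 0.05, with the direction of the means. A ratio is 1 stage mean over another. The deposited p need not measure the same quantity as that ratio, and their relation is not given in the sources used here. The stages differed in the genes that define them: the authors' mean of Mki67, a proliferation gene, was 289 in the cervical loop, 38.8 in the secretory and 35.3 in the maturation stage, that of Amelx (amelogenin, the main enamel matrix protein) was 1152, 37121 and 217, and that of Odam, a maturation-stage protein, was 29.3, 127 and 3159 in the same order. Genes of blood-derived cells were also present: summed over 18 measured myeloid markers, the authors' means came to 297, 232 and 638 in cervical loop, secretory and maturation samples. Of these sums, 1 marker alone gave 85.8, 65.3 and 300. In such tissue samples, fewer cells of a type and less RNA per cell cannot be told apart. Several RT1- class I genes are near-identical copies, among which reads can be split by the counting, so the values of single class I genes are uncertain.

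Antigen presentation genes were highest in maturation ameloblast samples. Of the 38 genes, 30 (78.9%) had their highest mean in the maturation stage, 2 in the secretory stage and 6 (15.8%) in the cervical loop, against 33.4%, 22.3% and 44.4% of all genes. In maturation against secretory samples, 22 genes (57.9%) were called higher and 0 lower, beside 21.8% of all 16516 genes called higher and 21.1% called lower, or 42.9% in either direction. In maturation against cervical loop samples, 21 genes (55.3%) were called higher and 2 (5.26%) lower, beside 24.1% of all genes higher and 33.7% lower, or 57.8% in either direction. The secretory and cervical loop samples differed less in these genes: 1 of the 38 (2.63%) was called higher in the secretory stage and 3 (7.89%) lower, beside 16.5% and 25.2% of all genes, or 41.8% in either direction. The median log2 ratio of the 38 genes was 0.83 for maturation over secretory, 0.87 for maturation over cervical loop and −0.03 for secretory over cervical loop, beside 0.01, −0.12 and −0.14 over all genes with a ratio. The 3 comparisons share stages and are not independent of one another. In all, 27 of the 38 genes (71.1%) were called in at least 1 pair of stages, close to the 72.1% of all genes.

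**Figure D1:**
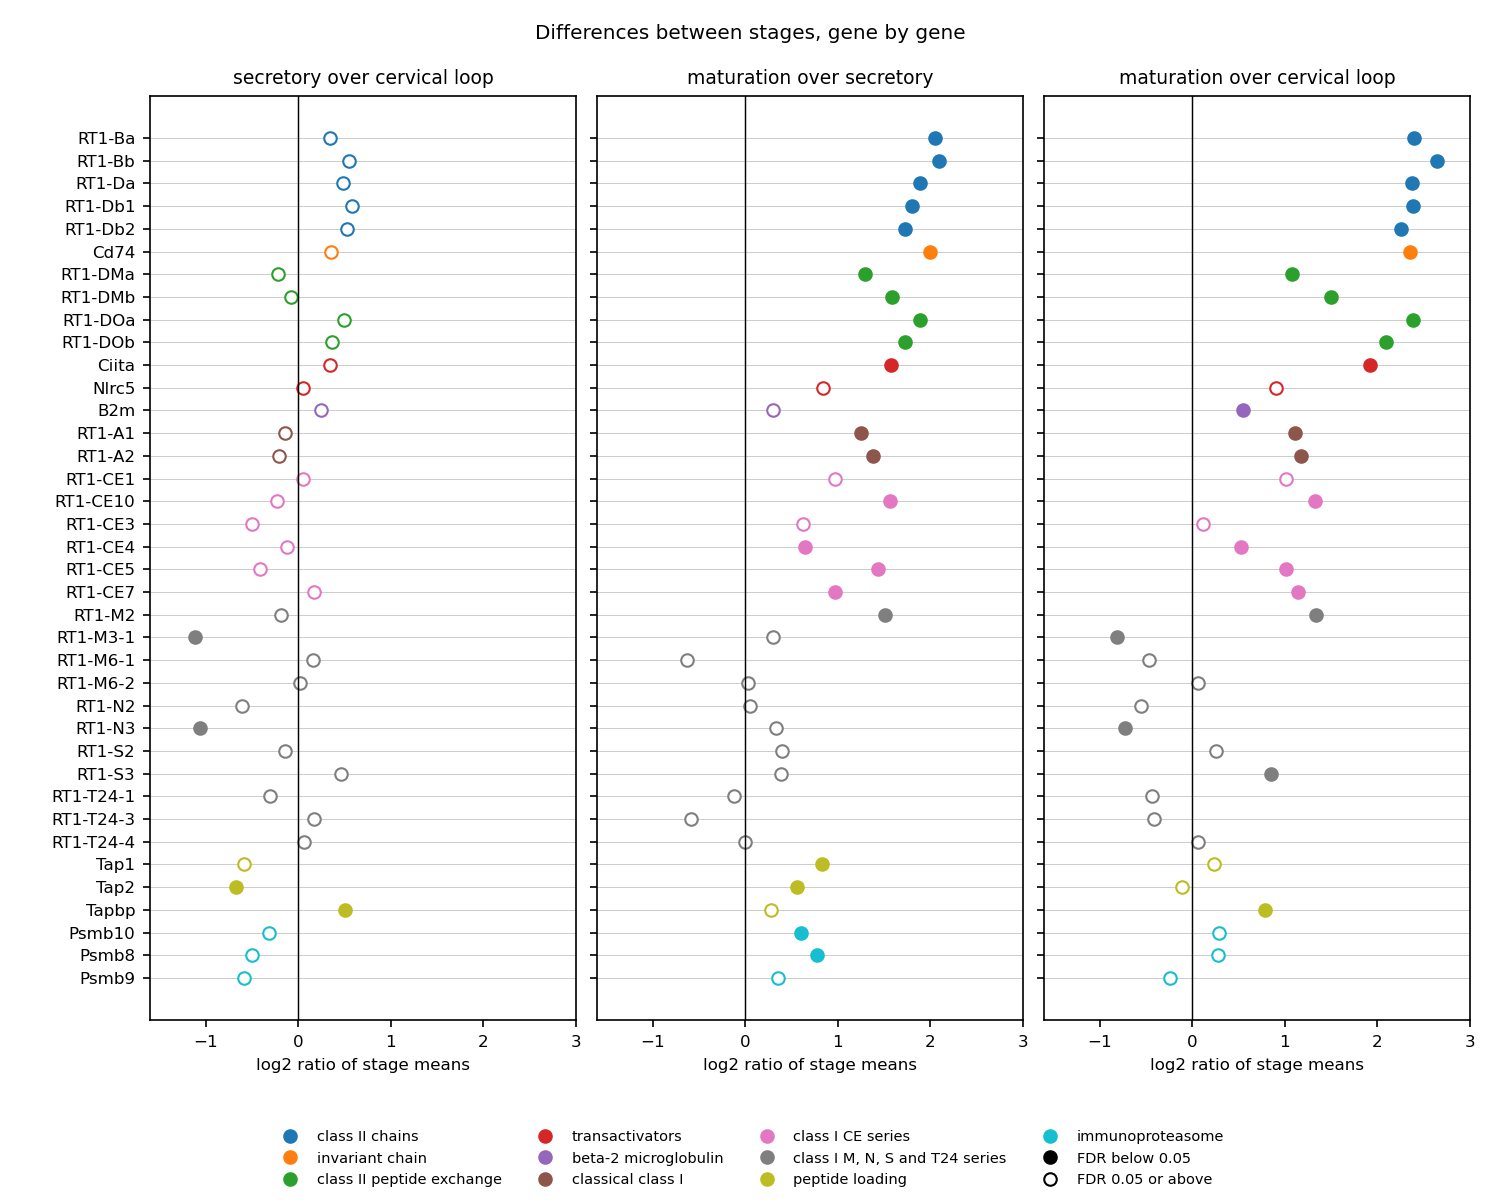
Log2 ratio of the authors' stage means for each of the 38 genes (rows), in panels for secretory over cervical loop, maturation over secretory and maturation over cervical loop; colours mark the genes' roles, filled points have FDR below 0.05 and open points do not. The class II genes and Cd74 stand to the right of 0 as filled points in both maturation panels, with ratios over the cervical loop of 2.11 to 6.27, while 34 of the 38 points in the secretory over cervical loop panel are open.

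The 5 class II chain genes, the invariant chain and the 4 genes of the peptide exchange molecules were all called higher in both maturation pairs. All 10 calls stand beside 21.8% of all genes higher over secretory and 24.1% higher over cervical loop samples. Added up, the authors' means of these 10 genes were 487 in maturation, 126 in secretory and 95.0 in cervical loop samples. Their median ratio was 3.59 over the secretory stage and 5.16 over the cervical loop. In secretory against cervical loop samples, none of the 10 was called in either direction, beside 41.8% of all genes, with FDR between 0.0605 and 0.966.

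RT1-Ba and RT1-Bb encode the alpha and beta chain of the rat counterpart of human HLA-DQ. RT1-Ba had a mean of 12.9 in cervical loop, 16.5 in secretory and 68.3 in maturation samples, 4.15 times as high in maturation as in secretory samples (FDR 0.000623) and 5.27 times as high as in the cervical loop (FDR 0.000235). RT1-Bb stood at 6.63, 9.73 and 41.6 over the same stages, and its ratio of 6.27 for maturation over cervical loop (FDR 0.000176) was the largest among the 38 genes, with 4.27 over the secretory stage (FDR 0.000614). Both chains of the pair were thus low in the 2 earlier stages and high in the last. RT1-Da and RT1-Db1 encode the chains of the counterpart of human HLA-DR. RT1-Da had means of 19.3, 27.0 and 100.3 in cervical loop, secretory and maturation samples, with a ratio of 3.72 over secretory (FDR 0.00106) and 5.20 over cervical loop samples (FDR 0.00031). RT1-Db1 had means of 8.38, 12.5 and 43.9, with ratios of 3.50 (FDR 0.000917) and 5.24 (FDR 0.000223). The second beta chain gene, RT1-Db2, had means of 0.458, 0.658 and 2.18, and its ratios of 3.31 (FDR 0.024) and 4.77 (FDR 0.00788) came down to 1.92 and 2.18 when 1 was added to every mean. Of these 5 chains, secretory samples had the higher mean over the cervical loop in every case, by ratios of 1.27 or more, without a call.

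Cd74, the invariant chain that fills the class II groove and guides the molecule to the endosome, followed the chains. Its mean was 42.3 in cervical loop, 54.3 in secretory and 217 in maturation samples. Maturation exceeded secretory samples 3.99-fold (FDR 0.000375) and cervical loop samples 5.12-fold (FDR 0.000127), the smallest FDR of any of the 38 genes in that pair. Both Cd74 transcripts in the authors' isoform table rose. Cd74-201 had 192 in maturation and 36.8 in cervical loop samples (ratio 5.22, FDR 9.09e-06 over all transcripts), and Cd74-202 had 26.4 and 5.61 (ratio 4.71, FDR 4.32e-06).

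RT1-DMa and RT1-DMb form the molecule that swaps the invariant chain remnant for peptide in the endosome, and RT1-DOa and RT1-DOb form its inhibitor. Before anything was added to the means, the DM genes had smaller ratios than the chains they serve. RT1-DMa had means of 1.25, 1.07 and 2.64 in cervical loop, secretory and maturation samples, 2.46 times as high in maturation as in secretory (FDR 0.00288) and 2.11 times as high as in cervical loop samples (FDR 0.00328). RT1-DMb had 3.12, 2.95 and 8.81, with ratios of 2.99 (FDR 0.00211) and 2.83 (FDR 0.00132). The DO genes, whose means were low, had ratios nearer to those of the chains before anything was added to the means. RT1-DOa stood at 0.286, 0.405 and 1.49, a ratio of 3.69 over secretory (FDR 0.00716) and 5.22 over cervical loop samples (FDR 0.00211), and RT1-DOb at 0.342, 0.440 and 1.45, with ratios of 3.30 (FDR 0.0112) and 4.25 (FDR 0.00246). With 1 added to every mean these ratios became 1.78 and 1.94 for RT1-DOa and 1.70 and 1.83 for RT1-DOb. Those of the DM genes became 1.76 and 1.62 for RT1-DMa and 2.49 and 2.38 for RT1-DMb. The larger ratios of the DO genes thus did not hold with that addition, where RT1-DMb was above both DO genes. RT1-DMb was then also above the chain gene RT1-Db2, at 1.92 and 2.18.

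Of the transactivators, Ciita, which assembles transcription complexes on class II promoters, had means of 1.66 in cervical loop, 2.11 in secretory and 6.28 in maturation samples. Maturation exceeded secretory samples 2.97-fold (FDR 0.00235) and cervical loop samples 3.78-fold (FDR 0.000817). With 1 added to every mean these ratios became 2.34 and 2.74. Nlrc5, the class I transactivator, had means of 0.646, 0.671 and 1.21 over the same stages and was called in no pair: its ratio was 1.79 over the secretory stage (FDR 0.0771) and 1.87 over the cervical loop (FDR 0.0607). Ciita is transcribed from several promoters in mammals, and the isoform table held 3 of its transcripts. Ciita-201 stood at 3.33 in maturation and 0.321 in secretory samples (ratio 10.4, FDR 0.000199), and at 0.318 in secretory and 1.13 in cervical loop samples (ratio 0.281, FDR 0.0375). Both ratios rest on a low secretory mean and were not checked with 1 added, so their size is uncertain. Ciita-202 and Ciita-203 ran the other way in the earlier pair, at 0.839 and 0.989 in secretory and 0.343 and 0.274 in cervical loop samples, with FDR 0.162 and 0.133. For a change in Ciita isoform make-up, the gene-level p was 0.00167 in secretory against cervical loop samples (FDR 0.0958) and 0.0011 in maturation against secretory samples (FDR 0.0586), neither of them a call.

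Many markers of antigen-presenting cells were called in the same pairs of stages. Of 18 measured myeloid markers, 13 (72.2%) were called higher in maturation than in secretory samples and 11 (61.1%) higher than in cervical loop samples. None was lower, none was called between the 2 earlier stages, and 5 of the 18 were called in neither maturation pair. Of all genes, 21.8% were higher and 21.1% lower in maturation against secretory, and 24.1% and 33.7% in maturation against cervical loop samples. In secretory against cervical loop samples these shares were 16.5% and 25.2%, and the same shares stand beside all lists below. The summed means of the 18 myeloid markers in maturation samples were 2.75 times those of secretory and 2.15 times those of cervical loop samples. A large part of these sums came from 1 marker, with means of 85.8, 65.3 and 300 from cervical loop to maturation. The median ratio of the markers was lower, at 2.25 over secretory and 1.73 over cervical loop samples. No myeloid marker was at or under a mean of 0.1 in any stage. Ptprc, the pan-leukocyte gene Cd45, had means of 8.91, 8.90 and 24.3 in cervical loop, secretory and maturation samples, with a ratio of 2.73 over secretory (FDR 0.0015) and 2.73 over cervical loop samples (FDR 0.000884). Cd68, a macrophage lysosomal protein, had 12.1, 6.02 and 23.4 and was called higher in maturation in both pairs (FDR 0.0081 over secretory, 0.034 over cervical loop). Csf1r, the macrophage growth factor receptor, had 60.5, 41.2 and 76.0 and was called in neither pair (FDR 0.0954 and 0.287). Of 10 measured dendritic and Langerhans cell markers, 5 (50%) were called higher in maturation than in secretory and 4 (40%) higher than in cervical loop samples. In secretory against cervical loop samples 1 (10%) was lower. Their sums were 24.1, 22.3 and 43.8 from cervical loop to maturation. Among them Flt3, a dendritic cell growth factor receptor, had 0.608, 0.661 and 1.70, and Itgax (Cd11c) had 7.89, 8.06 and 19.7. Of the 10, 5 were called in neither maturation pair, among them Zbtb46, a dendritic cell transcription factor, and Cd207 (langerin), with means of 0.791, 1.22 and 0.667. The part of these cells in the class II result was not tested. Ms4a1, a B cell surface protein, had means of 0.225, 0.447 and 0.431 from cervical loop to maturation and was called in no pair. Of 10 measured lymphoid markers, 1 (10%) was called higher in maturation than in secretory and 1 (10%) higher than in cervical loop samples. In secretory against cervical loop samples 2 (20%) were higher and 1 (10%) lower. Their sums were 6.54, 7.14 and 7.76 from cervical loop to maturation, Cd247 was at or under 0.1 in the cervical loop and secretory stages, and Cd3e was not in the table.

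**Figure D2:**
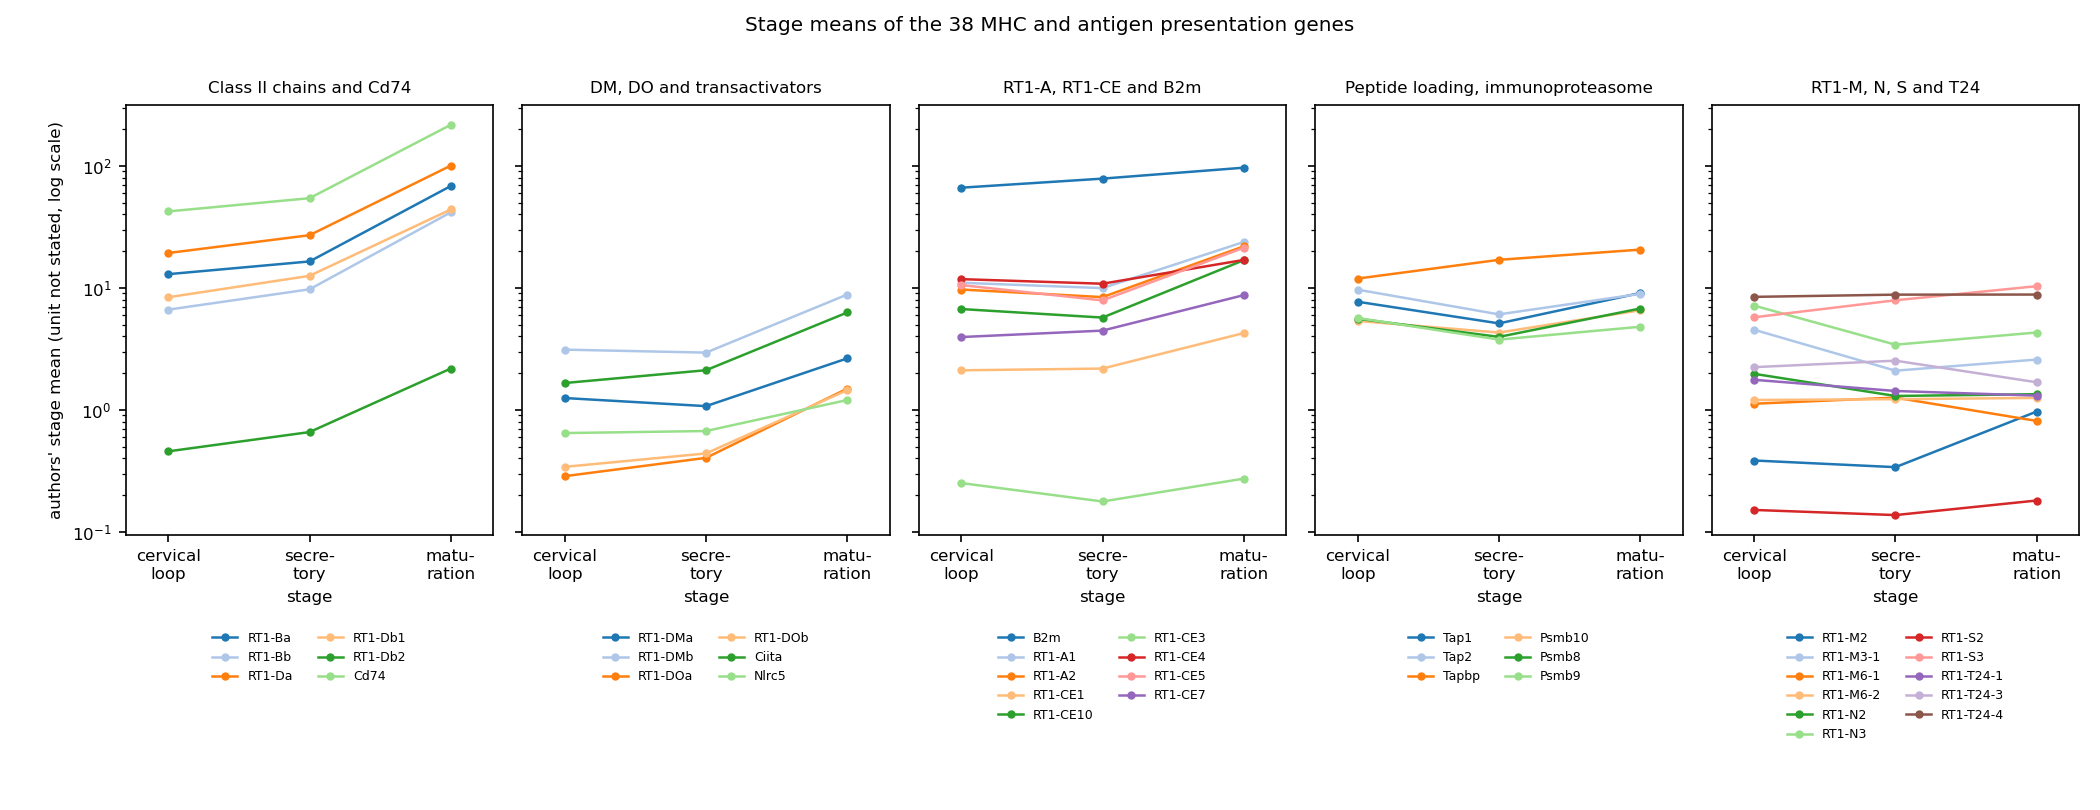
Authors' mean (log axis, unit not stated) in the cervical loop, secretory and maturation stages for the 38 genes, 1 line per gene, in panels by role; each point is 1 deposited mean, without an error. The lines of the class II chains and Cd74 climb from the secretory to the maturation stage (Cd74 to 217), whereas RT1-M3-1 and RT1-N3 have their highest points, 4.53 and 7.15, in the cervical loop.

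Not all class I genes were called. B2m, the light chain common to all class I molecules, had means of 66.2 in cervical loop, 78.5 in secretory and 96.5 in maturation samples. It was called higher in maturation than in cervical loop samples by a ratio of 1.46 (FDR 0.0321), and its ratios of 1.23 for maturation over secretory (FDR 0.208) and 1.19 for secretory over cervical loop (FDR 0.291) passed no threshold. The classical heavy chain genes RT1-A1 and RT1-A2 had larger ratios than the light chain. RT1-A1 had means of 11.0, 9.95 and 23.7 from cervical loop to maturation, with a ratio of 2.39 over secretory (FDR 0.00759) and 2.16 over cervical loop samples (FDR 0.00621). RT1-A2 had 9.69, 8.40 and 21.9, with ratios of 2.61 (FDR 0.00359) and 2.26 (FDR 0.00397). The 2 genes thus gave nearly the same ratios, but they are close copies and may share reads.

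The 6 genes of the RT1-CE group, which lie in the class I region away from RT1-A, varied among themselves. RT1-CE10 had the largest ratios of the group, with means of 6.70, 5.71 and 16.8 in cervical loop, secretory and maturation samples and ratios of 2.95 over secretory (FDR 0.00119) and 2.51 over cervical loop samples (FDR 0.00131). RT1-CE5 had 10.5, 7.89 and 21.3, higher in maturation 2.70-fold over secretory (FDR 0.00371) and 2.02-fold over cervical loop samples (FDR 0.0079). RT1-CE7 had 3.95, 4.46 and 8.72, with ratios of 1.95 (FDR 0.00633) and 2.20 (FDR 0.00226). A smaller rise was called for RT1-CE4, at 11.8, 10.8 and 16.9, with ratios of 1.57 (FDR 0.0136) and 1.44 (FDR 0.0269). RT1-CE1, at 2.11, 2.18 and 4.26, had ratios of 1.95 over secretory and 2.02 over cervical loop samples but no call (FDR 0.0875 and 0.0664). RT1-CE3 had means of 0.252, 0.178 and 0.273 and was called in no pair. Over RT1-A and RT1-CE together, 6 of 8 genes (75%) were called higher in each maturation pair, beside 21.8% and 24.1% of all genes. Their median ratio was 2.16 over secretory and 2.09 over cervical loop samples, against a median of 5.16 for the class II genes over the cervical loop.

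The remaining class I genes, of the M, N, S and T24 groups, include nonclassical molecules that present special ligands. Of these 11 genes, 1 (9.09%) was called higher and none lower in maturation against secretory samples, beside 21.8% and 21.1% of all genes. In maturation against cervical loop samples 2 (18.2%) were higher and 2 (18.2%) lower, beside 24.1% and 33.7%. In secretory against cervical loop samples none was higher and 2 (18.2%) were lower, beside 16.5% and 25.2%. None of these shares was above that of all genes. RT1-M3-1 belongs to the family whose mouse member H2-M3 presents N-formylated peptides. Its mean was 4.53 in cervical loop, 2.10 in secretory and 2.59 in maturation samples, 2.16-fold lower in the secretory stage than in the cervical loop (FDR 0.00305) and 1.75-fold lower in maturation than in the cervical loop (FDR 0.00441). RT1-N3 had the same order of stages, at 7.15, 3.42 and 4.31, 2.09-fold lower in the secretory stage than in the cervical loop (FDR 0.00309) and 1.66-fold lower in maturation (FDR 0.00625). Neither differed between maturation and secretory samples past the threshold (FDR 0.165 and 0.113). These were the only 2 of the 38 genes called lower in maturation than in the cervical loop.

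RT1-S3 and RT1-M2 went up instead. RT1-S3 had means of 5.74, 7.91 and 10.3 from cervical loop to maturation and was called higher in maturation than in the cervical loop, 1.80-fold (FDR 0.0104), but not in the steps between (FDR 0.136 for secretory over cervical loop and 0.133 for maturation over secretory). RT1-M2 had 0.385, 0.339 and 0.969, higher in maturation 2.85-fold over secretory (FDR 0.0213) and 2.52-fold over cervical loop samples (FDR 0.0254). With 1 added to every mean these ratios became 1.47 and 1.42. The other 7 genes (RT1-M6-1, RT1-M6-2, RT1-N2, RT1-S2, RT1-T24-1, RT1-T24-3 and RT1-T24-4) were called in no pair. Their maturation over cervical loop ratios lay between 0.681 and 1.19. The means of RT1-M6-2 were 1.21, 1.22 and 1.25, and those of RT1-T24-4 were 8.44, 8.80 and 8.81. RT1-T24-3 came nearest to a call, at 1.68 in maturation and 2.53 in secretory samples (ratio 0.665, FDR 0.0506), and it passed the threshold where genes with a mean below 1 over the stages were left out.

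Of the genes of class I peptide supply, Tap1, Tap2 and the 3 immunoproteasome subunits had their lowest mean in the secretory stage, as RT1-A1 and RT1-A2 did, and of these Tap2 was called lower there than in the cervical loop. Tap2, a subunit of the peptide transporter, had means of 9.66 in cervical loop, 6.06 in secretory and 8.93 in maturation samples. It was called lower in secretory than in cervical loop samples, 1.59-fold (FDR 0.0398), and higher in maturation than in secretory samples, 1.47-fold (FDR 0.0428), with a maturation over cervical loop ratio of 0.924 (FDR 0.755). Tap1, its partner, had 7.69, 5.11 and 9.07: the ratio of secretory over cervical loop was 0.665 (FDR 0.0605), maturation exceeded secretory samples 1.77-fold (FDR 0.0106), and maturation over cervical loop was 1.18 (FDR 0.183). Tapasin bridges the transporter and the empty class I molecule, and its mean was lowest in the cervical loop. The Tapbp means were 11.9, 17.0 and 20.6, higher in secretory than in cervical loop samples by 1.42-fold (FDR 0.0228), the one call of that kind among the 38 genes, and higher in maturation than in cervical loop samples by 1.73-fold (FDR 0.00262).

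The immunoproteasome subunits Psmb8, Psmb9 and Psmb10 replace the constitutive catalytic subunits Psmb5, Psmb6 and Psmb7 in cells exposed to interferon. Psmb8 had means of 5.58, 3.97 and 6.77 in cervical loop, secretory and maturation samples and was called higher in maturation than in secretory samples, 1.71-fold (FDR 0.0432). Psmb10 had 5.36, 4.30 and 6.55, with a ratio of 1.52 in that pair (FDR 0.0406). Psmb9 had 5.66, 3.77 and 4.80 and was called in no pair (FDR 0.189 for maturation over secretory). None of the 3 was called in maturation against cervical loop samples, where their ratios were 1.21 for Psmb8, 0.848 for Psmb9 and 1.22 for Psmb10. Of the constitutive partners, Psmb7 was called in all 3 pairs, with means of 30.4, 24.7 and 33.7. It was 1.23-fold lower in secretory than in cervical loop samples (FDR 0.00258) and 1.37-fold higher in maturation than in secretory samples (FDR 0.000519). Maturation over cervical loop was 1.11 (FDR 0.0194). Psmb6 had 0.447, 0.259 and 0.569 and was called higher in maturation than in secretory samples (ratio 2.20, FDR 0.0212). These Psmb6 means were low, and the size of this ratio is uncertain, since it was not checked with 1 added. Psmb5 had 38.4, 38.6 and 39.5 and was called in no pair. Of 16 further genes of the proteasome ring and its activators, 5 (31.2%) were called higher and 1 (6.25%) lower in maturation against secretory samples. In maturation against cervical loop samples 1 (6.25%) was higher and 1 (6.25%) lower, and in secretory against cervical loop samples 2 (12.5%) and 5 (31.2%). Of all genes, 21.8% were higher and 21.1% lower in the first pair, 24.1% and 33.7% in the second and 16.5% and 25.2% in the third. Among these, Psme2, an interferon-induced subunit of the proteasome activator PA28, had 7.83, 6.81 and 8.83, with a ratio of 1.30 for maturation over secretory samples (FDR 0.00252), and the ring subunit Psma1 had 63.9, 47.6 and 71.2, with a ratio of 1.49 (FDR 0.0025).

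Along the chromosome, genes of these different time courses are neighbours. In the RefSeq annotation of the rat assembly GRCr8, which serves here for gene order only, 33 of the 38 genes lie on chromosome 20, the chromosome of the rat MHC. Tap2, Psmb8, Tap1 and Psmb9 stand next to one another between RT1-DOb and RT1-DMb. None of the 4 was called in maturation against cervical loop samples, with ratios from 0.848 to 1.21, while the neighbour on one side, RT1-DOb, had a ratio of 4.25 and the neighbour on the other, RT1-DMb, one of 2.83, both called. Further along, genes of other functions measured between RT1-DOa and RT1-A2 had ratios from 0.449 to 1.36 in the same pair.

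**Figure D3:**
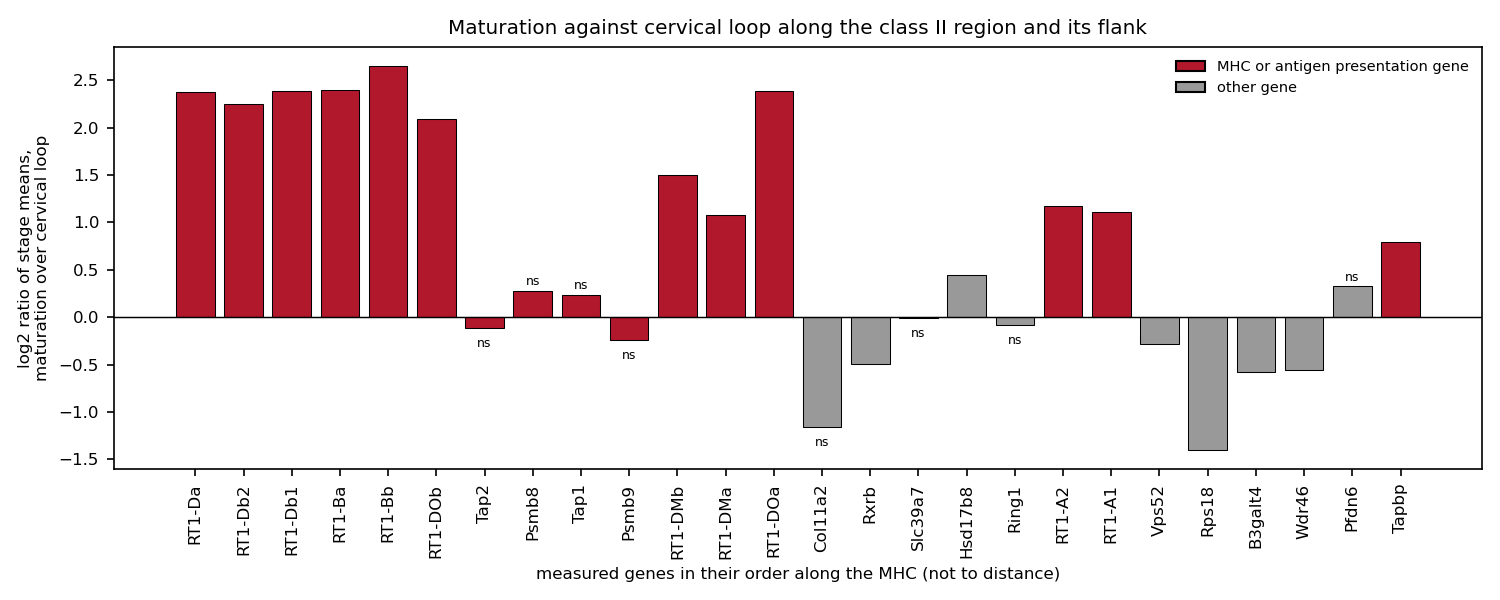
Log2 ratio of the authors' means, maturation over cervical loop, for the measured genes in their order along the MHC from RT1-Da to Tapbp (RefSeq GRCr8 order, not to distance); red bars are antigen presentation genes, grey bars other genes, and ns marks FDR of 0.05 or more. Tall red bars from RT1-Da to RT1-DOb give way to the 4 short bars of Tap2, Psmb8, Tap1 and Psmb9 (ratios 0.848 to 1.21) before RT1-DMb, RT1-DMa and RT1-DOa.

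The promoter sequences of the reference assembly show what sets of these genes share at their starts. Promoters of the Wistar Hannover rats themselves were not read, so their letters may differ. Windows from 250 bases before to 50 after the start, 300 bases each, were read from RefSeq (GRCr8) for 33 of the 38 genes and searched on both strands, beside 33469 promoters of the same length. CCAAT, the motif of the NF-Y factor, was in 24 of the 33 windows (72.73%) and in 37.49% of all. A pair of GAAA on 1 strand with 2 bases between them, the core of the interferon-stimulated response element (ISRE), was in 9 (27.27%) and in 3.92% of all: B2m, Psmb8, Psmb10, Tap1, Tap2, Tapbp, RT1-N3, RT1-S2 and RT1-S3, and no class II gene. Only the exact string was counted, so the absence of a match does not show that a gene lacks such an element. The windows of RT1-A1, RT1-A2, RT1-CE3, RT1-CE5 and RT1-CE10 hold TTTCACTTC, 1 base shorter than a match. TGACG, the core of the CREB family motif, was in 8 (24.24%) and in 21.2% of all, TATAAA in 5 (15.15%) and in 14.22%, GGGANTTCC, an NF-kappaB motif, in Cd74 and RT1-Ba (6.061%) and in 1.637%, and TTCNNNGAA, the STAT motif, in 2 windows (6.061%) and in 8.874%. A further search, added after the windows had been seen, asked for the order of the X2 and Y boxes of MHC promoters. It looked for TGACG on either strand followed by ATTGG, the reverse complement of CCAAT, with starts 15 to 40 bases apart. It found B2m, RT1-A1, RT1-A2, RT1-Ba and RT1-M3-1 (15.15%), and 0.6543% of all promoters. Because the pattern was set with the windows in view, these shares test nothing. The exact string also leaves out variants. TGATG before ATTGG occurs, for example, in the windows of RT1-Db1, RT1-Db2, RT1-DMa, RT1-DOb, RT1-CE3, RT1-CE5 and RT1-CE10. The search therefore does not show which genes have X2 and Y boxes. A match is a description of letters, and RT1- genes arose by duplication, so their windows are not independent. The windows of 6 genes with different time courses are printed 5′ to 3′ in the direction of the gene, with the TGACG and ATTGG pair and each ISRE core in capitals: RT1-Ba (chr20:4576807-4577106, plus strand), RT1-A2 (chr20:4872621-4872920, plus strand), B2m (chr3:129549080-129549379, plus strand), RT1-M3-1 (chr20:1333317-1333616, minus strand), Tap1 (chr20:4668494-4668793, minus strand) and Tapbp (chr20:4967828-4968127, minus strand), all GRCr8.
RT1-Ba: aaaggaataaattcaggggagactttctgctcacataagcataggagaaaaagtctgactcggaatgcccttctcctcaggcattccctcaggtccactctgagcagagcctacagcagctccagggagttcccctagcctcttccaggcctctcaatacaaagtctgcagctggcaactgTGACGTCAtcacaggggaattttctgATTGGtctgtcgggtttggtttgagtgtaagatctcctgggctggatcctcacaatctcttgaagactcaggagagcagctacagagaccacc
RT1-A2: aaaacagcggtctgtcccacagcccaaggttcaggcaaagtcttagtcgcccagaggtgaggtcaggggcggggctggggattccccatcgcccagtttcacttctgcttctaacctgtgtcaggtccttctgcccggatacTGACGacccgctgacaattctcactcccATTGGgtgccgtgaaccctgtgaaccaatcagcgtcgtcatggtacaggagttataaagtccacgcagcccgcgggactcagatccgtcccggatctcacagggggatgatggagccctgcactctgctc
B2m: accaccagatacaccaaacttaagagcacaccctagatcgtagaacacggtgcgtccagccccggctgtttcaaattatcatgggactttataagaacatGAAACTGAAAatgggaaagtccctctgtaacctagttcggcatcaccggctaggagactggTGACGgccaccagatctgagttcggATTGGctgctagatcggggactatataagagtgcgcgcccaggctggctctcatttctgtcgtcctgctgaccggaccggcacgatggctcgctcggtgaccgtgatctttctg
RT1-M3-1: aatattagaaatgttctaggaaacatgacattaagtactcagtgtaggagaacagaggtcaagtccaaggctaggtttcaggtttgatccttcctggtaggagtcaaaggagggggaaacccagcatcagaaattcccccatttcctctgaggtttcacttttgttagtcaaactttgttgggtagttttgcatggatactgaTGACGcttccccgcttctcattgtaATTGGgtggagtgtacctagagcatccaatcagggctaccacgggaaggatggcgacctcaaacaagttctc
Tap1: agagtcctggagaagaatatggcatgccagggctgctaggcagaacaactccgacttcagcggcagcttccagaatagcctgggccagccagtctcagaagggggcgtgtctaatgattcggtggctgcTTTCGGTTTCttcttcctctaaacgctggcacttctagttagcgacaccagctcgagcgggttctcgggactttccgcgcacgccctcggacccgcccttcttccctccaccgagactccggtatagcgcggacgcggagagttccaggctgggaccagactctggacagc
Tapbp: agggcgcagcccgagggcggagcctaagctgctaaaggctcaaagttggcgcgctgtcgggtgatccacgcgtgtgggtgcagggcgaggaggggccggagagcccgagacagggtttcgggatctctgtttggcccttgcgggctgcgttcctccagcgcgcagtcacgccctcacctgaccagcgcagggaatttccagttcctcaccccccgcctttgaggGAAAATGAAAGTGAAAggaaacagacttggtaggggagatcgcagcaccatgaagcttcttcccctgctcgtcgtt

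Counted from the start of the gene, the TGACG and ATTGG pair begins at −69 in RT1-Ba, where TGACG overlaps a copy of itself on the other strand, at −108 in RT1-A2, at −89 in B2m and at −47 in RT1-M3-1. Genes with the pair moved in different ways: RT1-Ba was 5.27 times, RT1-A2 2.26 times and B2m 1.46 times as high in maturation as in cervical loop samples, and RT1-M3-1 was 1.75-fold lower. The ISRE core begins at −150 in B2m, in which both motifs occur, and at −121 in Tap1, there on the other strand. Tapbp has 2 matches that overlap, beginning at −26 and −20. Tap1 and Psmb9 are divergent neighbours, and their windows share 44 bases on opposite strands.

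The isoform tables held 23 of the 38 genes, with 68 transcripts. No gene of these was called for a change in isoform make-up in any pair, beside 1.8% of all genes with isoforms in maturation against secretory samples, 2.79% against cervical loop samples, and 1.19% in the pair of the 2 earlier stages. At an unadjusted p below 0.05 the counts were 4, 3 and 2 of the 23 genes in the same order of pairs, where 11.4%, 14.4% and 11.4% of all genes with isoforms passed. Single transcripts did change: 16 of the 68 were called higher and 3 lower in maturation than in secretory samples, and 22 higher and 2 lower in maturation than in cervical loop samples, beside 7.87% and 9.11%, and 10.7% and 14.4%, of all 9949 transcripts. Of the RT1-Db1 transcripts, RT1-Db1-201 stood at 34.1 in maturation and 5.34 in cervical loop samples (ratio 6.39, FDR 0.000317), and RT1-Db1-202 at 2.19 and 1.08 (ratio 2.03, FDR 0.175). The make-up of RT1-Db1 was not called in that pair (FDR 0.406), so the transcripts were not shown to differ in their change. The stage mean of the same transcript differed between the 2 isoform tables that hold it by more than 1.5 times for 4 cervical loop and 11 secretory means and no maturation mean. This touches RT1-Da-202 and RT1-Da-203, called lower in maturation than in secretory samples: their secretory means were 0.938 and 1.03 in that table but 0.0653 and 0.155 in the table of secretory against cervical loop samples. RT1-Da-201 stood at 26.4 and 25.5 in the 2 tables.

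Other genes of the pathway were taken from lists. Many class II processing genes rose as well: of 14 genes for endosomal proteases and related proteins, 9 (64.3%) were called higher and 2 (14.3%) lower in maturation against secretory samples. In maturation against cervical loop samples 10 (71.4%) were higher and 2 (14.3%) lower, and in secretory against cervical loop samples 6 (42.9%) and 1 (7.14%). Of all genes, 21.8% were higher and 21.1% lower in the first pair, 24.1% and 33.7% in the second and 16.5% and 25.2% in the third. Lgmn, the endosomal protease legumain that cuts the invariant chain and antigens, had means of 46.6, 34.8 and 182 from cervical loop to maturation, 5.22 times as high in maturation as in secretory (FDR 0.000149) and 3.90 times as high as in cervical loop samples (FDR 8.8e-05). The lysosomal membrane protein gene Lamp1 had 104, 129 and 250, with ratios of 1.93 (FDR 0.000181) and 2.40 (FDR 5.47e-05). As background, maturation ameloblasts are rich in endosomes and lysosomes of their own. Cd83, which keeps class II on the surface of dendritic cells, had its highest mean in the cervical loop (10.9, 4.98 and 9.34 from cervical loop to maturation), and Rab27a, a GTPase of vesicle traffic, had its highest in the secretory stage (52.2, 164 and 31.8).

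Of 7 measured costimulation and checkpoint ligands, 4 (57.1%) were called higher and 1 (14.3%) lower in maturation against secretory samples, beside 21.8% and 21.1% of all genes. In maturation against cervical loop samples 3 (42.9%) were higher and none lower, beside 24.1% and 33.7%. In secretory against cervical loop samples 1 (14.3%) was higher, beside 16.5%. Cd86, a ligand that presenting cells show to T cells, had means of 0.579, 0.563 and 3.47 from cervical loop to maturation, a ratio of 6.16 over secretory (FDR 0.00124) and 5.98 over cervical loop samples (FDR 0.000757). The cervical loop and secretory means of Cd86 were low, and the size of its ratios is uncertain, since they were not checked with 1 added. Its relative Cd80 had 1.27, 1.26 and 4.95, with ratios of 3.93 (FDR 0.00609) and 3.89 (FDR 0.00486). Icam1, an adhesion molecule, was instead highest in the secretory stage, with means of 13.4, 30.0 and 16.5 from cervical loop to maturation and a ratio of 2.23 for secretory over cervical loop samples (FDR 0.00532).

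Of 13 genes of interferon receptors and their signalling, 9 (69.2%) were called higher and 1 (7.69%) lower in maturation against secretory samples. In maturation against cervical loop samples 10 (76.9%) were higher and 1 (7.69%) lower, and in secretory against cervical loop samples 1 (7.69%) and 2 (15.4%). Ifngr1, a chain of the interferon gamma receptor, had means of 20.5, 22.3 and 33.0 from cervical loop to maturation, with ratios of 1.48 over secretory (FDR 0.00197) and 1.61 over cervical loop samples (FDR 0.000623). Jak1, a kinase that the receptor uses, had 83.4, 92.8 and 138, and Jak2, the other, peaked in the secretory stage, at 55.8, 179 and 66.6, with a ratio of 3.21 for secretory over cervical loop samples (FDR 0.00067). Ifng itself was not in the table. Of 27 other interferon-induced genes, 9 (33.3%) were called higher and none lower in maturation against secretory samples, beside 21.8% and 21.1% of all genes. In maturation against cervical loop samples 7 (25.9%) were higher, near the 24.1% of all genes, and 1 (3.7%) was lower, beside 33.7%. In secretory against cervical loop samples 5 (18.5%) were lower and none higher, beside 25.2% and 16.5%. Of the 27 genes, 16 were called in neither maturation pair. Bst2 (tetherin, which holds enveloped virus on the cell) had 6.42, 6.79 and 32.1, with ratios of 4.73 over secretory (FDR 0.000531) and 5.00 over cervical loop samples (FDR 0.000281), and Irf7, a factor of the interferon response, had 1.52, 1.49 and 3.74, with ratios of 2.51 (FDR 0.00187) and 2.46 (FDR 0.00149).

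Of 13 factors that bind MHC promoters, 4 (30.8%) were called higher and 3 (23.1%) lower in maturation against secretory samples, near the 21.8% and 21.1% of all genes. In maturation against cervical loop samples 6 (46.2%) were called higher and 3 (23.1%) lower, beside 24.1% and 33.7% of all genes. In secretory against cervical loop samples 1 (7.69%) was higher and 4 (30.8%) lower, beside 16.5% and 25.2%. Nfkb1, a subunit of NF-kappaB, had means of 34.8, 25.7 and 50.7 from cervical loop to maturation, with a ratio of 1.97 over secretory (FDR 0.00028). Nfya and Nfyc, subunits of the CCAAT-binding NF-Y, were highest in the cervical loop: Nfya had 16.7 in maturation and 34.5 in cervical loop samples (2.07-fold lower, FDR 0.000174), and Nfyc 17.8 and 28.8 (1.62-fold lower, FDR 0.000446). Of 10 genes of class I peptide loading and trimming, 3 (30%) were called higher and 2 (20%) lower in maturation against secretory samples, near the shares of all genes. In maturation against cervical loop samples 5 (50%) were higher and 2 (20%) lower, and in secretory against cervical loop samples 5 (50%) and 1 (10%). Ide, an insulin-degrading protease that also cuts antigens, had means of 68.4, 107 and 154 from cervical loop to maturation, with a ratio of 1.44 over secretory (FDR 0.00401) and 2.25 over cervical loop samples (FDR 0.000162). Of 5 measured class I-like genes, 2 (40%) were called higher and 1 (20%) lower in maturation against secretory samples. In each of the other pairs 2 (40%) were higher and 2 (40%) lower. Cd1d1, which presents lipids to natural killer T cells, peaked in the secretory stage, with means of 3.69, 23.6 and 6.22 from cervical loop to maturation and a ratio of 6.40 for secretory over cervical loop samples (FDR 0.000847). Mr1, which presents vitamin B metabolites, and Hfe, the iron regulator, were lower in maturation than in the cervical loop, at 1.98 and 5.66 for Mr1 (2.86-fold, FDR 0.00122) and 1.95 and 6.21 for Hfe (3.18-fold, FDR 0.000853).

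Endothelial cells also present antigen on class I. Of 10 measured endothelial markers, 6 (60%) were called higher in maturation than in secretory and 9 (90%) higher than in cervical loop samples. In secretory against cervical loop samples 3 (30%) were higher, and none was lower in any pair. Of all genes, 21.8%, 24.1% and 16.5% were higher in the same order of pairs. The sums of these markers were 230, 310 and 452 from cervical loop to maturation. Cdh5, the endothelial cadherin, had 26.5, 35.3 and 41.0 and was called higher in maturation than in the cervical loop (FDR 0.0232), and Pecam1 was not in the table. The part of these cells in the class I results, like that of the myeloid cells, was not tested.

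**Figure D4:**
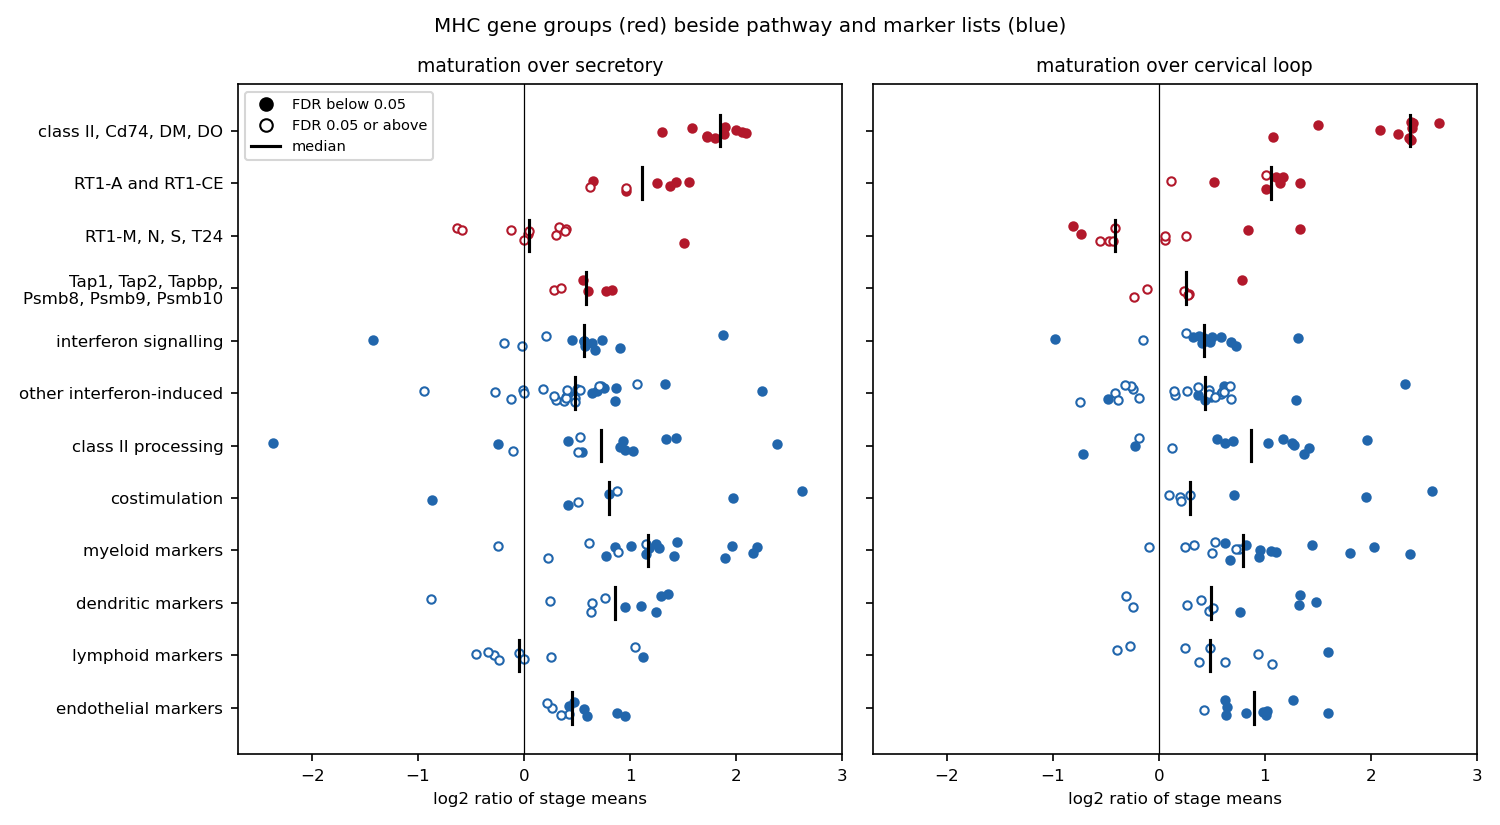
Log2 ratios of the authors' means, maturation over secretory and maturation over cervical loop, 1 point per gene, for 4 groups of antigen presentation genes (red) and 8 lists of pathway and marker genes (blue); filled points have FDR below 0.05, and bars mark the medians. The class II row lies wholly above 0 with medians at ratios of 3.59 and 5.16, and filled myeloid points (13 and 11 of 18) lie on the same side.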

How the data were processed

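RNA of 3 enamel organ stages from 5 Wistar Hannover rats was sequenced per the labels' protocols, with 75-base single-end reads, an RNA integrity of at least 7 and 1 cervical loop library left out. The submitters' processing notes list STAR 2.5.3a, Partek and rn6. Annotation, gene filter, normalisation and model are not stated there. The authors deposited 1 least-squares mean per gene and stage, per the file headers, in a unit that the headers do not state, so the depth behind a value is unknown. The authors also deposited p-values and a ratio (linear fold) of means for each pair of stages, and isoform tables with 9949 transcripts. The total column was the sum of 3.99 (cervical loop), 3.99 (secretory) and 5.01 (maturation) times the stage means, near 13 libraries in all. Taking 1 library per rat and stage less the 1 left out gives 14, a difference that was not settled, so the number of rats behind the secretory mean is unclear. Nothing in the files shows how libraries of the same rat were treated in the authors' model.

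The Benjamini-Hochberg adjustment was applied to the deposited p-values of all 16516 genes, or all transcripts, per pair in Python 3.11.15 with numpy 2.4.6 and pandas 2.3.3, and tested on simulated data. Genes were called at FDR below 0.05 with the sign of the difference of the means. Ratios were taken only where both means exceeded 0.1. Members by the symbol rule may be named, and up to 4 called genes of each pathway list and fixed defining markers. The members and lists were chosen with earlier results of these data known. Alternatives were FDR 0.01, a fold of 2, a mean of at least 1, a pseudocount of 1, 2 scalings, the stage lists, and members with and without the RT1- prefix.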

Additional observations from a re-analysis of the deposited data

How the results depend on the processing

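With an FDR of 0.01, 14 genes rather than 22 were higher in maturation than in secretory samples, and 0 rather than 1 was higher in secretory than in cervical loop samples. With a fold of at least 2 asked for as well, 0 were higher in secretory than in cervical loop samples, and 0 rather than 2 were lower in maturation than in the cervical loop. Where only genes with a mean of at least 1 over the stages were tested, 32 members were left and 1 rather than 0, RT1-T24-3, was lower in maturation than in secretory samples. The RT1- genes alone gave 0 higher in secretory than in cervical loop samples, and the other 10 genes gave 6 higher in maturation than in secretory, 4 higher and 0 lower in maturation than in cervical loop, and 1 lower in secretory than in cervical loop samples. The median log2 ratio of the members for maturation over secretory moved from 0.83 to 0.62 with 1 added to each mean, 1.11 in RT1- genes and 0.69 in the others. That for maturation over cervical loop moved from 0.87 to 0.62 with 1 added, 0.75 with stages scaled to their sum without the 10 highest genes, 1.05 in RT1- genes and 0.42 in the others. That for secretory over cervical loop moved from −0.03 to −0.17 with that scaling and −0.13 in genes outside RT1-. Scaling single ratios to the sum without the 10 highest genes, an alternative chosen after seeing the data, turned 7 of 114, none of them among the 49 called. For secretory over cervical loop these became 0.941 (Nlrc5), 0.936 (RT1-CE1), 0.919 (RT1-M6-2) and 0.944 (RT1-T24-4), and for maturation over cervical loop 0.996 (RT1-CE3), 0.953 (RT1-M6-2) and 0.958 (RT1-T24-4). None of the 114 turned with the stage lists or with scaling to the 75th percentile. No call for isoform make-up was made at FDR 0.01 either. Replicates could not be left out, since 1 mean per stage was deposited. No paired analysis was possible because the stages are given as means with no values per rat.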
